A study of Homo sapiens with 18 samples.

Results

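The 10 genes described here encode chaperones and folding enzymes of the endoplasmic reticulum (ER), together with the transcription factor XBP1. They are HSPA5, HYOU1, SDF2L1, DNAJB9, DNAJC3, HSP90B1, PDIA4, PDIA6, CALR and XBP1, and each was found by its symbol in a table of 58870 genes. All 10 passed the filter on low counts, which left 15787 genes for testing. RNA had been sequenced from NCI-H295R, a human adrenocortical carcinoma cell line that makes steroid hormones. Cells of this single line were untreated or received STA9090 (ganetespib, an inhibitor of the HSP90 chaperones), PIK75 (a PI3K inhibitor), BGT226 (an inhibitor of PI3K and mTOR), STA9090+PIK75 or STA9090+BGT226. The stated exposure was 48 h at 20 nM, with 3 biological replicates in each of the 6 groups and 18 libraries in all. How much of each agent a combination held, and what vehicle the untreated cells received, is not given in the sources used.

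Proteins that enter the secretory pathway fold in the ER with the help of these chaperones. When unfolded proteins build up, the sensors IRE1 (gene ERN1), ATF6 and PERK (gene EIF2AK3) are activated, which is called the unfolded protein response. IRE1 removes a short intron from XBP1 mRNA, and the protein made from the spliced mRNA, together with cleaved ATF6, switches on ER chaperone genes through promoter sequences known as ER stress response elements. HSP90 inhibitors are best known for raising another set, the heat shock genes of the cytosol. Counts per gene do not separate spliced from unspliced XBP1.

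Promoter sequences are shown first because 7 of the 10 genes have a match to a response element there, of 2 kinds. RefSeq windows on GRCh38.p14 that run from 250 bases before to 50 bases after an annotated start were available for all 10 genes, 13 windows in all, and 35116 windows of 300 bases served as the background. Both strands were searched. The ER stress response element, searched as CCAAT and CCACG with any 9 bases between them, matched in 5 of the 10 genes and in 0.0769% of all windows. The shorter element II, searched as ATTGG and CCACG with any 1 base between them, matched in HYOU1 and SDF2L1 and in 0.0541% of all windows. The bases before the start are printed for 5 genes, 5′ to 3′ on the strand of the gene. They are examples of 1 exact match to the first element (HSPA5, XBP1), of 2 (HSP90B1) and of element II (HYOU1, SDF2L1). Copies that differ from the searched letters were not looked for. Capitals mark the fixed letters of a match on either strand.
HSPA5, chr9:125241344-125241593, minus strand: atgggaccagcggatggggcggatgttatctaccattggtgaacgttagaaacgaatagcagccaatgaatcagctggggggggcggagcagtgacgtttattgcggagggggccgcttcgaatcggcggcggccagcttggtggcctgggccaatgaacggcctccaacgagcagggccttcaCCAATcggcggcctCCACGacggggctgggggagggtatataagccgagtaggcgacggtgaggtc
HSP90B1, chr12:103930160-103930409, plus strand: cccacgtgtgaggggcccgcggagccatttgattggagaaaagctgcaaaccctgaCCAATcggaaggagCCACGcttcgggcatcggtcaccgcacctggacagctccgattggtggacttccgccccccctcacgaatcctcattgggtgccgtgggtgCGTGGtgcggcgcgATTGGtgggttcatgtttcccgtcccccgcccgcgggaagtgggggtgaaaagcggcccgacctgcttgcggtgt
XBP1, chr22:28800570-28800819, minus strand: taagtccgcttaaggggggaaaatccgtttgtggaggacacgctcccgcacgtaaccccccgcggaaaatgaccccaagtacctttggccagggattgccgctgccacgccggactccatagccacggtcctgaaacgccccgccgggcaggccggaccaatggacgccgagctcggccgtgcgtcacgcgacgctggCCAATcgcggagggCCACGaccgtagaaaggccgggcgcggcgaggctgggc
HYOU1, chr11:119057206-119057455, minus strand: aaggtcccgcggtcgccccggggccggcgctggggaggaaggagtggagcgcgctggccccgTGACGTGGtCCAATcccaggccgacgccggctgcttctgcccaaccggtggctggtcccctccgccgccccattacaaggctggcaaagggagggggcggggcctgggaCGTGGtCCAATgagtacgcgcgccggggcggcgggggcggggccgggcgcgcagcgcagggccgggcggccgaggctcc
SDF2L1, chr22:21642052-21642301, plus strand: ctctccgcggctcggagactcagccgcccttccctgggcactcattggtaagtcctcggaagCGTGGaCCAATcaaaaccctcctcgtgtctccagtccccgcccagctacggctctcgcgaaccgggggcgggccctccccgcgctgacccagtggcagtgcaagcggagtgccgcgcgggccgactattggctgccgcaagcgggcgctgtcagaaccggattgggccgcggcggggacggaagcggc

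The match to the first element began 66 bases before the start in HSPA5 and 52 bases before it in XBP1. HSP90B1 had matches on opposite strands, 194 and 89 bases before the start. PDIA6 had the match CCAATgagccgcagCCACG 86 bases before a start, and CALR had CGTGGtcgaccatcATTGG, on the other strand, 225 bases before it. Element II lay 185 and 79 bases before the start of HYOU1, where the first copy overlapped a match to the core TGACGTGG of another element of the unfolded protein response (0.729% of all windows), and 188 bases before that of SDF2L1. Neither element was matched in the windows of DNAJB9, DNAJC3 and PDIA4, which says only that these letters are not in those windows. The 5 letters CCAAT, which both elements contain, occurred on either strand in a window of all 10 genes and in 34.6% of all windows. The heat shock element, searched as GAA, TTC and GAA with any 2 bases between neighbours (0.49% of all windows) and the ATF4 core TGATGNAA (3.62%) were matched in none of the 13 windows.

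Library totals ran from 10237016 to 21133760 expected counts, the highest in BGT226 replicate 3, and a member had between 91 and 8417 counts in a library. The share of 4 abundant polymerase III RNAs was 28.6% to 40.3% and that of mitochondrial mRNAs 4.71% to 10.7%. STA9090 replicate 1 and PIK75 replicate 3 lay apart from their groups on the third principal component. Of the adrenocortical markers, CYP11A1 was at 322 ± 36.8 and CYP17A1 at 263 ± 20.3 CPM in untreated cells (SD, n = 3), whereas CYP11B1 was near 0. CPM are counts scaled to a common library size with TMM factors. Of 9 markers of fibroblasts, endothelium and leukocytes, CD3E and CDH5 were at 0 in all 18 libraries and COL1A2, VWF, PECAM1 and PTPRC at or near 0. The 9 summed to 8.54 to 12 CPM in untreated cells and to 1.34 to 2.44 CPM with STA9090+PIK75, mostly through COL1A1, and to 0.254 to 1.33 CPM over all groups without it.

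Expression of the members differed widely in untreated cells. Per kilobase of merged exon (GENCODE 29), CALR had 102 ± 5.37 and HSPA5 80.7 ± 4.01 CPM (SD, n = 3). PDIA4 followed with 32.1, HSP90B1 with 25.6, PDIA6 with 22 and HYOU1 with 21, and SDF2L1 with 15.7 and XBP1 with 12.3 CPM per kilobase. The J-domain genes DNAJC3, with 8.23, and DNAJB9, with 4.44, were the lowest. Summed over the 10 genes, the level was 1183 ± 22.7 CPM in untreated cells, 1321 ± 29.7 with BGT226, 1091 ± 40.7 with PIK75 and 1033 ± 27 with STA9090. It was 966.4 ± 23.3 with STA9090+PIK75 and 973.5 ± 27 with STA9090+BGT226, and every library of either combination had a lower sum than every library of the single agents. HSPA5 and CALR weigh most in this sum, with means of 315.5 and 277.2 CPM in untreated cells, and single genes did not all follow its order.

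**Figure D1:**
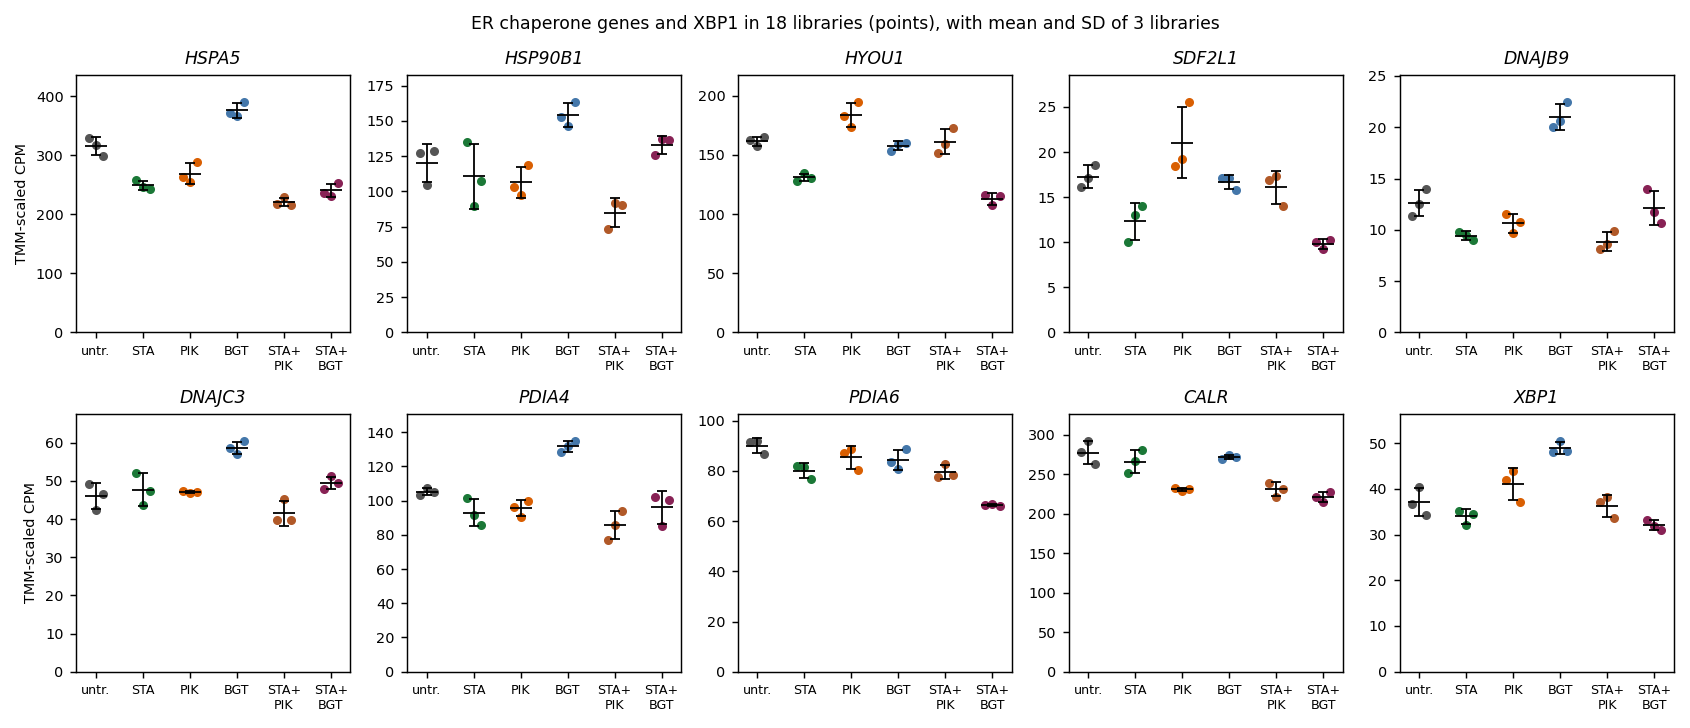
TMM-scaled CPM of the 10 genes, each on its own axis from 0, in the 6 groups (untr., untreated; STA, STA9090; PIK, PIK75; BGT, BGT226). Points are libraries, and the horizontal bars are the mean and SD of 3. BGT226 has the highest mean for HSPA5, HSP90B1, DNAJB9, DNAJC3, PDIA4 and XBP1, whereas HYOU1 and SDF2L1 are highest with PIK75.

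BGT226 raised ER chaperone genes and XBP1, and with STA9090 given on top of it 4 of the 6 that had risen fell: HSPA5, DNAJB9, PDIA4 and XBP1. Both comparisons use the same BGT226 libraries, so high values in those libraries add to the rise and to the fall alike, and the 2 are not independent. The 10 genes were chosen with earlier results of these data known, and what this choice adds to their shares was not tested. Of the 10 genes, 6 rose with BGT226 against untreated cells and none fell (edgeR's quasi-likelihood test, adjusted over all 15787 genes, threshold 0.05), where 12.8% of all genes rose, 15.7% fell and 28.6% changed in either direction. When STA9090 was added to BGT226, 8 of 10 fell and none rose, where 1.70% of all genes fell, 0.988% rose and 2.69% changed. In that comparison all 10 genes were lower in every library of the combination than in every library of BGT226, a separation that 14.6% of all genes showed in that direction. STA9090 alone lowered HSPA5, HYOU1 and SDF2L1 and raised none (1.68% of all genes fell, 1.16% rose, 2.84% changed). PIK75 lowered HSPA5 and CALR and raised none (10.2% fell, 8.49% rose, 18.7% changed). The members' share with PIK75, 20%, was near that of all genes and is not read as a result about them.

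In each combination, 6 of the 10 genes were below untreated cells. With STA9090+PIK75, 6 members fell and none rose (20.1% of all genes fell, 18.3% rose, 38.4% changed), and with STA9090+BGT226 6 fell and none rose (20.4% fell, 19.4% rose, 39.8% changed). The shared calls were HSPA5, PDIA6 and CALR; HSP90B1, DNAJB9 and PDIA4 fell in the first, and HYOU1, SDF2L1 and XBP1 in the second. The treatments were compared with the same 3 untreated libraries, so these comparisons are not independent of each other. In RNA from whole cultures, a loss of cells that express a gene and a lower amount of its RNA in each cell cannot be told apart. The replicates are labelled as biological, and what was done separately for each is not given, so the p-values measure the spread between these libraries.

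**Figure D2:**
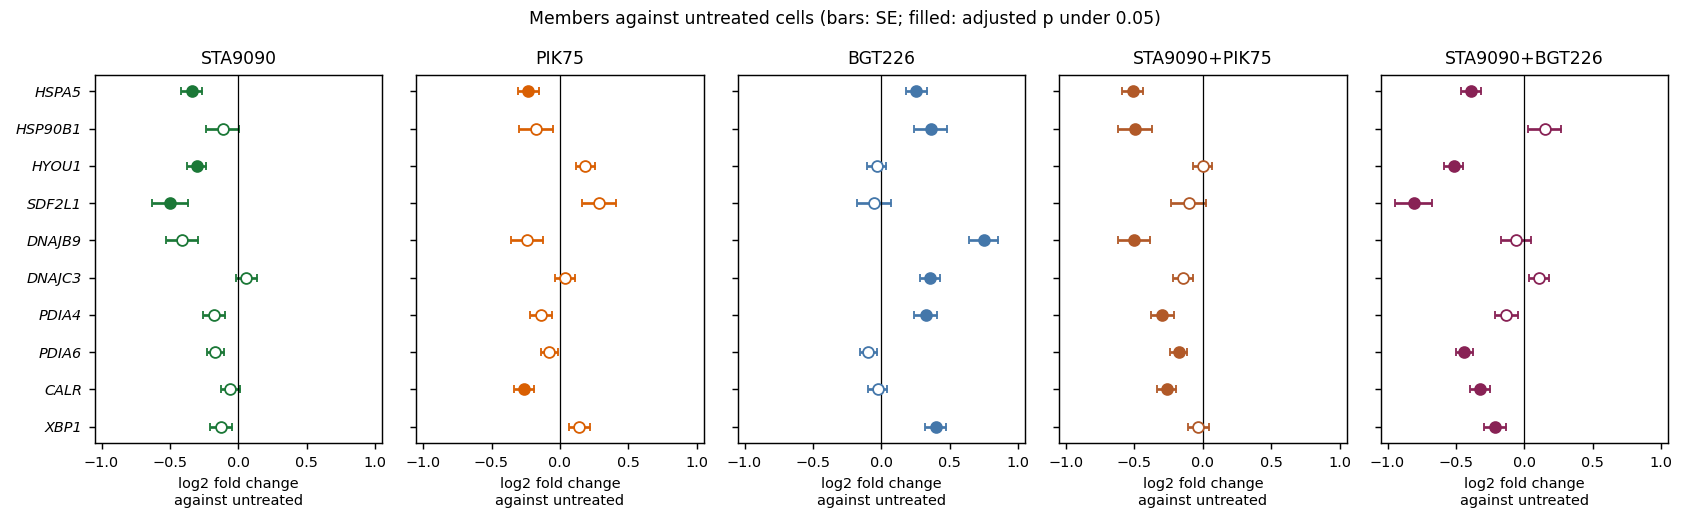
Log2 fold change of each gene against untreated cells, 1 panel for each treatment, with bars of 1 SE. Filled points have adjusted p under 0.05: 3 with STA9090, 2 with PIK75, 6 with BGT226 and 6 with each combination.

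The remaining comparisons set treatments against each other. STA9090 added to PIK75 lowered HSPA5 and SDF2L1 (2 of 10, with 14.0% of all genes lower, 11.3% higher and 25.3% changed). PIK75 added to STA9090 raised HYOU1 and SDF2L1 and lowered HSP90B1, DNAJC3 and CALR, where 17.7% of all genes rose, 19.8% fell and 37.5% changed. BGT226 added to STA9090 raised DNAJB9 and lowered HYOU1, PDIA6 and CALR, where 19.5% rose, 20.9% fell and 40.4% changed. Between the PI3K inhibitors, 7 members were higher with BGT226 than with PIK75 and 2 lower, where 15.5% of all genes were higher, 16.5% lower and 32.0% changed. Between the combinations, 3 were higher and 3 lower with STA9090+BGT226 than with STA9090+PIK75, where 22.4% were higher, 20.9% lower and 43.3% changed. The members' share changed between the PI3K inhibitors, 90%, was above that of all genes. It was 60% between the combinations and 50% with PIK75 added to STA9090. With STA9090 added to PIK75 it was 20%, and with BGT226 added to STA9090 40%. With only 10 members a single gene moves this share by much, so these other shares are not read as different from those of all genes.

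HSPA5 encodes BiP, the Hsp70 chaperone of the ER lumen and, in untreated cells, the most counted of the 10 genes (hg38, chr9:125234853-125241330, minus strand, protein-coding). Untreated libraries had 329.5, 318.5 and 298.6 CPM, and BGT226 libraries 372, 367 and 390.3 CPM. STA9090 libraries had 257.7, 247.0 and 242.4 CPM and PIK75 libraries 262.7, 255.0 and 289.1 CPM. STA9090+PIK75 libraries had 218.2, 229.7 and 215.5 CPM, and STA9090+BGT226 libraries 236.8, 231.8 and 253.3 CPM. BGT226 was thus above untreated cells in every library and the other 4 treatments below them, with no overlap, and only the ranges of PIK75, STA9090 and STA9090+BGT226 overlapped their neighbours in the order of the means. The log2 change against untreated cells was 0.25 with BGT226 (SE 0.0752, adjusted p = 0.0148), -0.34 with STA9090 (SE 0.0754, adjusted p = 0.0208) and -0.23 with PIK75 (SE 0.0753, adjusted p = 0.0371). It was -0.51 with STA9090+PIK75 (adjusted p = 2.06e-05) and -0.39 with STA9090+BGT226 (adjusted p = 0.00036).

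Added to BGT226, STA9090 lowered HSPA5 by a log2 change of -0.65 (SE 0.0755, adjusted p = 9.69e-05), and added to PIK75 by -0.28 (SE 0.0755, adjusted p = 0.00888). HSPA5 was higher with BGT226 than with PIK75 (log2 0.49, adjusted p = 5.18e-05). Between the combinations the difference was 0.12 (95% interval -0.04 to 0.28, adjusted p = 0.203), although the libraries did not overlap. The calls for single agents rested on few libraries. The STA9090 call was lost without untreated replicate 1 or STA9090 replicate 2 (adjusted p up to 0.0688), that of PIK75 without untreated replicate 1 or 2 or PIK75 replicate 1 or 2 (up to 0.145), and that of BGT226 without untreated replicate 3 or BGT226 replicate 3 (up to 0.0821). Fitting only the 2 compared groups also lost the STA9090 and PIK75 calls, and leaving out the filter on low counts lost those of PIK75 and BGT226.

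HYOU1 and SDF2L1 work with BiP: HYOU1 is a large Hsp70-related chaperone that exchanges its nucleotide, and SDF2L1 is a lumenal partner of BiP and its J-domain helper DNAJB11. They are the pair with matches to element II in the promoter sequences printed above. HYOU1 (chr11:119044189-119057202, minus strand) had 162.6, 157.3 and 164.8 CPM in untreated libraries, 128.1, 134.4 and 130.4 CPM with STA9090 and 182.8, 173.8 and 194.6 CPM with PIK75. It had 153.5, 159.5 and 160.2 CPM with BGT226, 151.8, 159.3 and 172.7 CPM with STA9090+PIK75, and 115.8, 107.3 and 115.4 CPM with STA9090+BGT226. The STA9090 and STA9090+BGT226 libraries were thus below all others and PIK75 above all others. SDF2L1 (chr22:21642261-21644298, plus strand) had 16.1, 17.1 and 18.6 CPM in untreated libraries, 10.0, 12.98 and 14.0 CPM with STA9090 and 18.4, 19.2 and 25.5 CPM with PIK75. Its values were 17.1, 17.1 and 15.8 CPM with BGT226, 16.9, 17.4 and 14.0 CPM with STA9090+PIK75, and 10.0, 9.21 and 10.2 CPM with STA9090+BGT226. Here too STA9090+BGT226 was lowest and PIK75 highest by the mean, but the PIK75 range overlapped that of untreated cells, and that of STA9090+BGT226 overlapped that of STA9090.

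STA9090 lowered HYOU1 by a log2 change of -0.30 (SE 0.0693, adjusted p = 0.0244) and SDF2L1 by -0.50 (SE 0.132, adjusted p = 0.046). On top of BGT226 the changes were -0.48 (SE 0.0694, adjusted p = 0.000722) for HYOU1 and -0.75 (SE 0.134, adjusted p = 0.00328) for SDF2L1. STA9090+BGT226 was below untreated cells by -0.52 (adjusted p = 7.51e-06) for HYOU1 and by -0.81 (adjusted p = 7.9e-05) for SDF2L1. With STA9090+PIK75 the values against untreated cells were -0.0024 and -0.10, and neither passed (adjusted p = 0.982 and 0.558). PIK75 added to STA9090 raised both, by 0.30 for HYOU1 (adjusted p = 0.00194) and 0.39 for SDF2L1 (adjusted p = 0.0253). SDF2L1 also fell when STA9090 was added to PIK75 (log2 -0.39, adjusted p = 0.0295), and the HYOU1 value was -0.19 (adjusted p = 0.051).

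Both genes were lower with BGT226 than with PIK75, by -0.22 for HYOU1 (adjusted p = 0.019) and -0.34 for SDF2L1 (adjusted p = 0.0448), and lower with STA9090+BGT226 than with STA9090+PIK75, by -0.52 (adjusted p = 5.28e-06) and -0.71 (adjusted p = 0.000276). HYOU1 fell when BGT226 was added to STA9090 (-0.21, adjusted p = 0.0182). Several of these calls depended on single libraries. For STA9090 alone, HYOU1 was lost without untreated replicate 1 or 3 or STA9090 replicate 1 (adjusted p up to 0.0918), SDF2L1 without any 1 untreated library or STA9090 replicate 1 or 2 (up to 0.201), and both when only the 2 compared groups were fitted. For SDF2L1, the calls with STA9090 added to PIK75 were lost without replicate 3 of either group (up to 0.199), those with PIK75 added to STA9090 without STA9090 replicate 1 or STA9090+PIK75 replicate 1 or 2 (up to 0.153), and both again when only the 2 compared groups were fitted. Between BGT226 and PIK75, HYOU1 was lost without PIK75 replicate 3 or BGT226 replicate 1 or 3 (up to 0.0752) and with no filter, and SDF2L1 without PIK75 replicate 3 or any 1 BGT226 library (up to 0.293), with DESeq2 and with the 50 most counted genes left out. The HYOU1 call with BGT226 added to STA9090 was lost without replicate 2 of either group (up to 0.0841) and with no filter.

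DNAJB9 and DNAJC3 carry J domains that stimulate the ATPase of BiP; DNAJB9 (ERdj4) also assists the degradation of misfolded proteins, and DNAJC3 (P58IPK) is known as an inhibitor of PERK. DNAJB9 (chr7:108569568-108574850, plus strand) had 11.4, 12.5 and 14.0 CPM in untreated libraries and 20.0, 20.6 and 22.4 CPM with BGT226. With STA9090+BGT226 it was at 14.0, 11.7 and 10.7 CPM, which overlapped untreated cells. The values were 9.77, 9.53 and 8.96 CPM with STA9090, 11.5, 9.68 and 10.7 CPM with PIK75 and 8.12, 8.61 and 9.84 CPM with STA9090+PIK75. BGT226 therefore stood alone above every other library. The rise with BGT226 was the largest of any member against untreated cells, a log2 change of 0.75 (1.68-fold, SE 0.107, adjusted p = 3.17e-05), and STA9090 on top of BGT226 changed it by -0.81 (0.571-fold, SE 0.107, adjusted p = 0.000277). The difference of STA9090+BGT226 from untreated cells was -0.06 (95% interval -0.30 to 0.17, adjusted p = 0.696).

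DNAJB9 fell with STA9090+PIK75 (-0.50, SE 0.118, adjusted p = 0.00221). With STA9090 alone the value was -0.41 and the libraries did not overlap, but it did not pass (adjusted p = 0.0591). It was higher with BGT226 than with PIK75 (0.99, adjusted p = 1.04e-06) and higher with STA9090+BGT226 than with STA9090+PIK75 (0.44, adjusted p = 0.00481). BGT226 added to STA9090 gave 0.35 (adjusted p = 0.0206), a call lost without STA9090 replicate 3 or STA9090+BGT226 replicate 1 (adjusted p up to 0.132), with no filter, with DESeq2 and when only the 2 compared groups were fitted. The gene overlaps THAP5 and PNPLA8 on the opposite strand in GENCODE 29, and because the strand used in counting is not given, reads of these genes may not be fully separated. THAP5 had 113 to 283 and PNPLA8 63 to 198 counts in a library; THAP5 gave 0.12 with BGT226 (adjusted p = 0.534) and 0.04 with STA9090 on BGT226 (adjusted p = 0.926), and PNPLA8 gave 0.04 and 0.14 (adjusted p = 0.872 and 0.711).

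DNAJC3 (chr13:95677139-95794989, plus strand) changed in fewer comparisons. Untreated libraries had 49.1, 42.3 and 46.6 CPM and BGT226 libraries 58.5, 57.2 and 60.3 CPM. STA9090+BGT226 libraries, at 47.9, 51.2 and 49.4 CPM, overlapped the untreated ones, and those of STA9090+PIK75 were lowest by the mean at 39.6, 45.2 and 39.7 CPM. BGT226 was again above all other libraries, whereas each other group overlapped its neighbour in the order of the means. The rise with BGT226 was 0.35 (SE 0.0743, adjusted p = 0.00125). STA9090 on top of BGT226 gave -0.25 without overlap, which did not pass (adjusted p = 0.0778). DNAJC3 was higher with BGT226 than with PIK75 (0.32, adjusted p = 0.00258) and higher with STA9090+BGT226 than with STA9090+PIK75 (0.25, adjusted p = 0.00994), the latter lost without STA9090+PIK75 replicate 3 (adjusted p = 0.0666). Its fall when PIK75 was added to STA9090 (-0.20, adjusted p = 0.0403) was lost without replicate 1 or 3 of either group (up to 0.236), with no filter, with DESeq2 and when only the 2 compared groups were fitted.

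HSP90B1 (GRP94) is the ER member of the HSP90 family that STA9090 targets (chr12:103930107-103953645, plus strand). Untreated libraries had 127.4, 104.3 and 128.7 CPM, BGT226 libraries 152.6, 146.2 and 163.2 CPM and STA9090+PIK75 libraries 73.3, 91.5 and 90.1 CPM. STA9090 libraries spread from 89.3 to 135.2 CPM, the highest being replicate 1, PIK75 libraries from 97.1 to 118.8 CPM and STA9090+BGT226 libraries from 125.4 to 137.3 CPM. BGT226 lay above every other library, and STA9090+PIK75 below all but STA9090 replicate 2. HSP90B1 rose with BGT226 (0.36, SE 0.122, adjusted p = 0.032) and fell with STA9090+PIK75 (-0.50, SE 0.124, adjusted p = 0.00337). With STA9090 alone the value was -0.12 (95% interval -0.37 to 0.14, adjusted p = 0.672), and on top of BGT226 it was -0.21 (adjusted p = 0.41).

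HSP90B1 was higher with BGT226 than with PIK75 (0.54, adjusted p = 0.00218), and its difference between the combinations, 0.64 higher with STA9090+BGT226, was the largest rise among the members there (SE 0.124, adjusted p = 0.000268). PIK75 added to STA9090 lowered it by -0.38 (adjusted p = 0.0198) although the libraries overlapped. That call was lost without STA9090 replicate 1 or STA9090+PIK75 replicate 1 (adjusted p up to 0.18) and when only the 2 compared groups were fitted, and the BGT226 call without untreated replicate 2 or BGT226 replicate 1 or 3 (up to 0.154). On the opposite strand HSP90B1 overlaps C12orf73, with 35 to 78 counts in a library, and TTC41P, with 1 to 11, and the pseudogenes HSP90B2P and HSP90B3P had at most 12 counts.

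PDIA4 (ERp72) and PDIA6 (P5) are thioredoxin-like enzymes that form and rearrange disulfide bonds. PDIA4 (chr7:149003062-149028641, minus strand) had 103.5, 107.2 and 105.2 CPM in untreated libraries, 128.6, 131.8 and 134.6 CPM with BGT226 and 102.3, 85.1 and 100.7 CPM with STA9090+BGT226. It had 101.3, 91.8 and 85.9 CPM with STA9090, 96.3, 90.7 and 100.01 CPM with PIK75 and 77.2, 86.0 and 93.9 CPM with STA9090+PIK75. BGT226 was above and all other treatments below untreated cells in every library. PDIA4 rose with BGT226 (0.32, SE 0.0826, adjusted p = 0.00582), fell when STA9090 was added to it (-0.46, SE 0.0827, adjusted p = 0.00394), and was higher with BGT226 than with PIK75 (0.46, adjusted p = 0.000241). Its fall with STA9090+PIK75 (-0.30, adjusted p = 0.00823) was lost without replicate 1 of that group (adjusted p = 0.0555).

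PDIA6 (chr2:10783391-10837977, minus strand) was highest in untreated cells, at 91.7, 91.8 and 86.8 CPM, and did not rise in any comparison. BGT226 libraries had 83.6, 80.6 and 88.6 CPM, overlapping the untreated range, and STA9090+BGT226 libraries 66.3, 66.9 and 66.0 CPM, below every other library. The fall with STA9090+BGT226 was -0.44 against untreated cells (SE 0.0626, adjusted p = 1.46e-05), -0.34 against BGT226 (SE 0.0626, adjusted p = 0.00394), -0.27 against STA9090 (adjusted p = 0.00167) and -0.26 against STA9090+PIK75 (adjusted p = 0.002). STA9090+PIK75 libraries had 77.8, 82.7 and 78.4 CPM, a change of -0.18 from untreated cells (adjusted p = 0.0288). That call was lost without untreated replicate 1 or 2 or STA9090+PIK75 replicate 1 or 3 (adjusted p up to 0.0876), with no filter and when only the 2 compared groups were fitted.

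CALR encodes calreticulin, a calcium-binding chaperone that holds glycoproteins by their sugar chains (chr19:12938578-12944489, plus strand). Untreated libraries had 277.7, 291.6 and 262.4 CPM, BGT226 libraries 269.5, 274.6 and 271.9 CPM and STA9090 libraries 251.1, 266.7 and 280.5 CPM, and these 3 groups overlapped. PIK75 libraries had 233.1, 228.7 and 231.1 CPM, STA9090+PIK75 libraries 239.5, 221.5 and 231.8 CPM and STA9090+BGT226 libraries 221.5, 214.4 and 227.9 CPM. These 3 groups were below every library of the others. CALR fell with PIK75 (-0.26, SE 0.0705, adjusted p = 0.0124), with STA9090+PIK75 (-0.26, SE 0.0705, adjusted p = 0.0057) and with STA9090+BGT226 (-0.33, SE 0.0705, adjusted p = 0.00105). Adding STA9090 to PIK75 gave -0.00041 (95% interval -0.15 to 0.15, adjusted p = 0.998).

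CALR also fell when PIK75 (-0.20, adjusted p = 0.0276) or BGT226 (-0.27, adjusted p = 0.00497) was added to STA9090 and when STA9090 was added to BGT226 (-0.30, adjusted p = 0.0263), and was higher with BGT226 than with PIK75 (0.24, adjusted p = 0.0144). The fall with STA9090 on BGT226 was lost when any 1 of the 6 libraries was left out (adjusted p up to 0.115). That with PIK75 on STA9090 was lost without replicate 2 or 3 of either group (up to 0.107), and the difference between BGT226 and PIK75 without PIK75 replicate 2 (0.0532). With no filter on low counts, the fall with PIK75 alone and the 3 calls just named were lost, and fitting only the 2 compared groups lost those of PIK75 and of PIK75 on STA9090.

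XBP1 (chr22:28794555-28800597, minus strand) is the transcription factor of the set and has a match to the first response element in its own promoter window. Untreated libraries had 36.6, 40.4 and 34.3 CPM and BGT226 libraries 48.0, 50.4 and 48.4 CPM. STA9090+BGT226 libraries had 33.3, 31.8 and 31.1 CPM, below all untreated libraries. STA9090 libraries had 35.2, 32.2 and 34.5 CPM, PIK75 libraries 41.9, 44.0 and 37.1 CPM and STA9090+PIK75 libraries 37.1, 38.3 and 33.6 CPM. BGT226 was above every other library. XBP1 rose with BGT226 (0.40, 1.32-fold, SE 0.0771, adjusted p = 0.000643), and STA9090 on top of BGT226 lowered it by -0.61 (0.655-fold, SE 0.0777, adjusted p = 0.000277). STA9090 alone gave -0.13 (95% interval -0.29 to 0.04, adjusted p = 0.405) and PIK75 alone 0.14 (adjusted p = 0.223).

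XBP1 was higher with BGT226 than with PIK75 (0.25, adjusted p = 0.0156), a call lost without PIK75 replicate 3 or BGT226 replicate 2 (adjusted p up to 0.0837) and with no filter. Against untreated cells, STA9090+BGT226 gave -0.21 (adjusted p = 0.036), lost without untreated replicate 2 or STA9090+BGT226 replicate 2 or 3 (up to 0.182), with no filter and when only the 2 compared groups were fitted. The processed pseudogene XBP1P1 had at most 5 counts in a library.

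Whether STA9090 acted differently in the presence of a PI3K inhibitor was tested as an interaction on the log2 scale. With BGT226, all 10 values were negative, that is, each gene lay lower with STA9090+BGT226 than the sum of the single changes, from -0.10 for HSP90B1 to -0.48 for XBP1. Of all 15787 genes, 7994 had a positive value. In the lists described below, 1 of 15 folding partners, 1 of 15 translocation genes and 1 of 17 degradation genes had one. So did 2 of 8 sensors and proteases, 3 of 9 lectin chaperones and glycan enzymes and 5 of 16 oxidative folding genes. In the PERK branch 5 of 8 did, and 6 of 17 heat shock genes. The 10 members' values come from the same libraries and are not independent. No member passed (0 of 10, where 1 gene, 0.00633% of all genes, did). The XBP1 value was -0.48 (SE 0.111, 95% interval -0.71 to -0.25, unadjusted p = 0.000302, adjusted p = 0.181). It passed with DESeq2 and in a fit with no filter on low counts. For HSPA5 the interaction was -0.30 (adjusted p = 0.362) and for DNAJB9 -0.39 (adjusted p = 0.427). With PIK75, values ran from -0.24 for DNAJC3 to 0.15 for DNAJB9 and none passed (0 of 10, where 9.27% of all genes did, and by DESeq2 also none). DNAJC3 had the lowest adjusted p among the members there (0.179). That STA9090 passed on BGT226 and not on untreated cells therefore does not show, for DNAJB9, PDIA4, PDIA6, CALR or XBP1, that its effect differed.

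**Figure D3:**
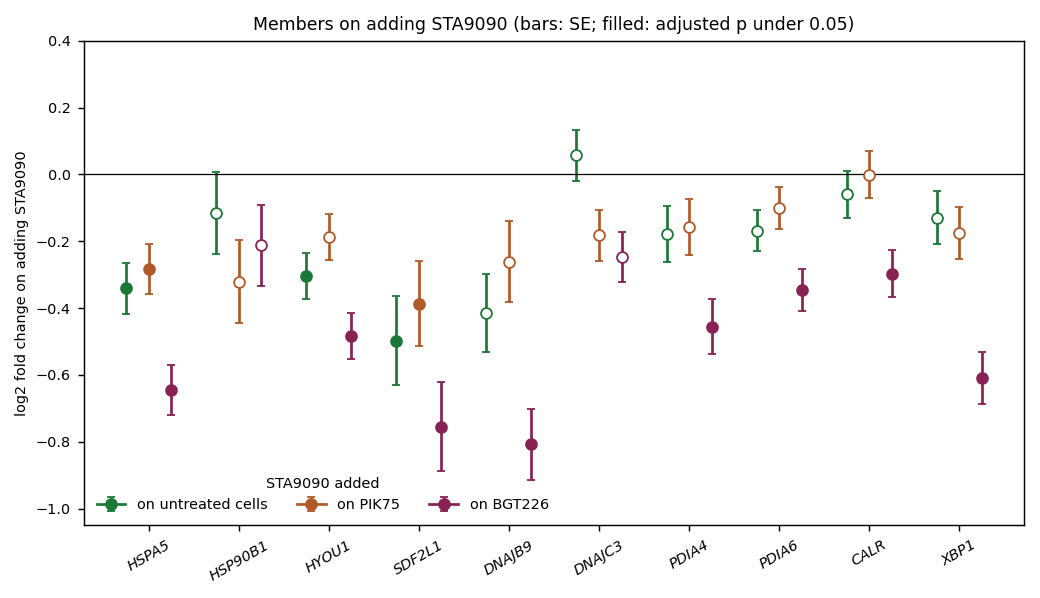
Log2 fold change of each gene when STA9090 is added to untreated cells, to PIK75 or to BGT226, with bars of 1 SE and filled points for adjusted p under 0.05. The step on BGT226 is filled for 8 genes, that on untreated cells for 3 and that on PIK75 for 2; for CALR the step on PIK75 lies at 0.

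The members did not vary as a single block. Over the 18 libraries, HYOU1 and SDF2L1 had a Pearson correlation of log2 CPM of 0.92, which was 0.995 over the 6 group means and 0.218 within groups. HSP90B1 and DNAJC3 had 0.897, and 0.803 within groups. HSPA5 had 0.904 with PDIA4 and 0.842 with DNAJB9, and DNAJB9 had 0.925 with PDIA4. HYOU1 had -0.235 with HSP90B1 and 0.331 with HSPA5. These are descriptions over libraries that share their treatments, depth and scaling. HYOU1 and SDF2L1 were the pair highest by the mean with PIK75, although neither passed there against untreated cells (log2 0.19 and 0.28). Unlike HSPA5, DNAJB9, DNAJC3, HSP90B1, PDIA4 and XBP1, this pair was not raised by BGT226. PDIA6 and CALR were not raised by it either (log2 -0.095 and -0.028). Over the 18 libraries PDIA6 had 0.755 with HYOU1 and 0.689 with SDF2L1, but -0.355 and -0.592 within groups. CALR had 0.179 and 0.239 with the pair over the 18 libraries.

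**Figure D4:**
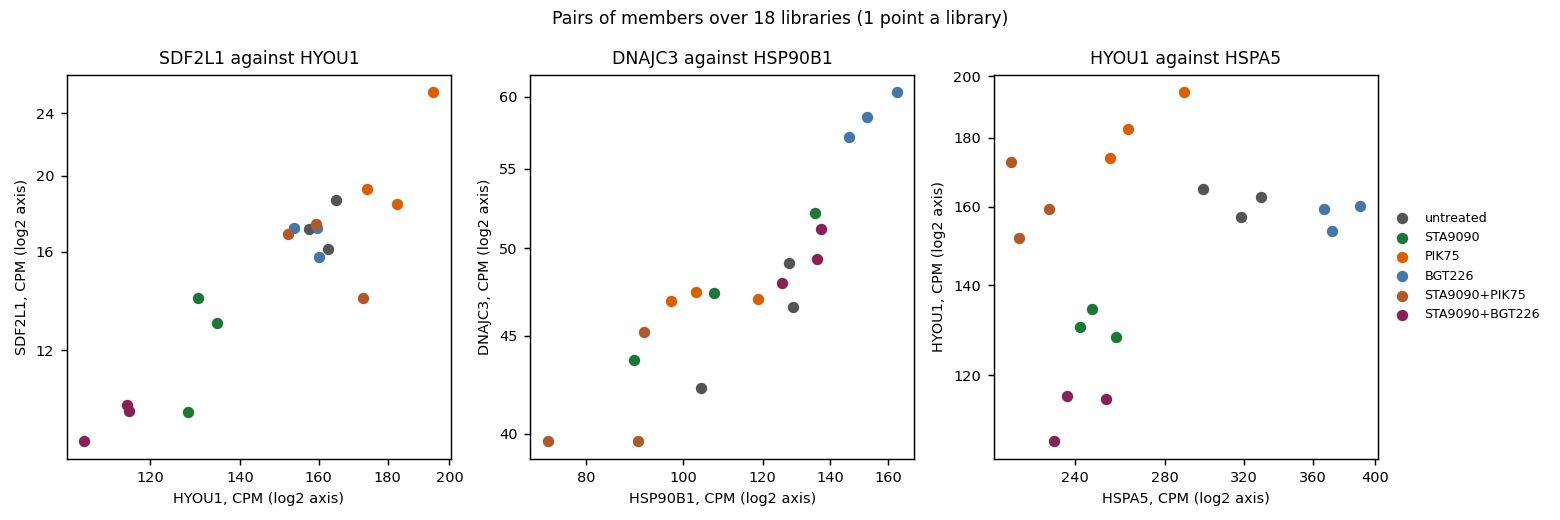
Log2-scaled CPM of 3 pairs of genes, 1 point for each of the 18 libraries, coloured by group. SDF2L1 follows HYOU1 (0.92) and DNAJC3 follows HSP90B1 (0.897), whereas HYOU1 and HSPA5 are less closely related (0.331), with some groups overlapping along each axis.

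Other genes of ER protein folding were read from 8 lists, which were also chosen with earlier results of these data known. Among 15 genes of translocation into the ER, 10 fell and none rose when STA9090 was added to BGT226 (66.7%, against 2.69% of all genes changed), with a median of -0.41 against 0.01 over all genes. They included SSR3 (-0.58, adjusted p = 0.000277) and SSR2 (-0.46, adjusted p = 0.00179) of the translocon-associated complex, and SEC61A1 (-0.48) and SEC61B (-0.54, both adjusted p = 0.00212) of the channel itself. Against untreated cells, 9 of the 15 fell and 1 rose with STA9090+BGT226 (20.4% of all genes fell, 39.8% changed), with SEC61B at -0.96 (adjusted p = 8.81e-08). With STA9090 alone 2 fell, SSR3 and SSR2 (1.68% of all genes fell, 2.84% changed). With BGT226 alone 2 rose, SSR2 (0.55) and SEC11A (0.57), and 2 fell, SEC61B (-0.41) and SPCS1 (-0.30), a share of 26.7% that is near the 28.6% of all genes changed.

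Sensors and proteases of the unfolded protein response rose with BGT226. Of 8 tested, 6 rose and none fell (75%, against 28.6% of all genes changed), among them ERN1 (0.49, adjusted p = 3.78e-05), ATF6B (0.58, adjusted p = 4.7e-05), CREB3L2 (0.54, adjusted p = 0.000126) and EIF2AK3 (0.29, adjusted p = 0.0271). On adding STA9090 to BGT226, CREB3L2 fell (-0.50, adjusted p = 0.0031) and no other did. In the PERK branch, 3 of 8 genes rose and 3 fell with BGT226 (12.8% of all genes rose, 15.7% fell): ATF4, its transcription factor, rose by 0.49 (adjusted p = 8.81e-06) and PPP1R15A, the phosphatase subunit that ends the response, by 0.69 (adjusted p = 5.65e-05), while CHAC1 fell by 2.11 on the log2 scale (adjusted p = 6.46e-08) and SESN2 by 0.64 (adjusted p = 0.000268). None of the 8 passed with STA9090 alone. Adding STA9090 to PIK75 raised 5 of them and lowered none (11.3% of all genes rose, 25.3% changed), among them DDIT3 (0.64, adjusted p = 0.00136) and NUPR1 (1.20, adjusted p = 0.00158), while HSPA5 and SDF2L1 fell in the same comparison.

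In oxidative folding, 9 of 16 genes fell and 2 rose with STA9090+PIK75 (68.8%, against 38.4% of all genes changed). The oxidases ERO1B (-1.55, adjusted p = 1.36e-07) and ERO1A (-0.77, adjusted p = 8.08e-06) and the isomerases PDIA3 (-0.58, adjusted p = 8.92e-06) and TXNDC5 (-0.43, adjusted p = 1.38e-05) were lower. STA9090 on BGT226 lowered 4 and raised none (1.70% of all genes fell): TXNDC5 (-0.53, adjusted p = 9.69e-05), P4HB (-0.48, adjusted p = 0.00212), PDIA3 (-0.38, adjusted p = 0.0108) and PDIA5 (-0.56, adjusted p = 0.0218). Of the 15 folding partners of the members, PPIB (-0.52, adjusted p = 0.000857), FKBP2 (-1.34, adjusted p = 0.0187) and MANF (-0.44, adjusted p = 0.0236) fell in that comparison and none rose. Of 9 lectin chaperones and glycan-processing enzymes, CANX (-0.34, adjusted p = 0.0453) fell there and no other passed. In ER-associated degradation, HERPUD1 (-0.31, adjusted p = 0.0097) was the only one of 17 to fall and none rose, and with BGT226 against untreated cells 5 rose and 4 fell (12.8% of all genes rose, 15.7% fell), with DERL3 among those that rose (1.73, adjusted p = 0.00052).

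STA9090 raised some cytosolic heat shock genes. Of 17, 5 rose and none fell with STA9090 against untreated cells (29.4%, against 2.84% of all genes changed), among them HSP90AA1 (0.61, adjusted p = 0.00455), HSPH1 (0.50, adjusted p = 0.0317), CHORDC1 (0.52, adjusted p = 0.0332) and HSPA4 (0.38, adjusted p = 0.0334). On PIK75, STA9090 raised 11 and lowered none, where 11.3% of all genes rose and 25.3% changed. On BGT226 it raised 4 and lowered none, where 0.988% of all genes rose and 2.69% changed, with HSP90AA1 at 0.63 (adjusted p = 0.00164). BGT226 alone lowered 9 and raised none (15.7% of all genes fell, 28.6% changed), including STIP1 (-0.68, adjusted p = 9.79e-06), while 6 of the 10 ER genes rose.

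STA9090+PIK75, the group in which HSPA5, HSP90B1, DNAJB9, DNAJC3 and PDIA4 were lowest by the mean, also had the lowest steroidogenic markers. All 7 adrenocortical markers tested fell there, both against untreated cells (20.1% of all genes fell, 38.4% changed) and against PIK75 alone (14.0% fell, 25.3% changed). CYP17A1 was at 53.4 ± 2.28 CPM against 263 ± 20.3 CPM in untreated cells (SD, n = 3), and COL1A1 was at 0.799 ± 0.27 CPM against 9.21 ± 1.45 CPM. The leukocyte marker CD14, at a low level, rose against untreated cells (1.16, adjusted p = 0.0231) and against PIK75 alone (2.06, adjusted p = 0.00172). The part of these changes in the values of the ER genes was not tested. With BGT226, 3 of the 7 markers rose and 3 fell (12.8% of all genes rose, 15.7% fell).

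Genes with the pattern most like a member's were named by the Pearson correlation of log2 CPM over the 18 libraries. They were picked from these same libraries, so levels and changes like those of the members follow from the choice. For HSPA5 they included PPIB, an ER prolyl isomerase (0.963), HLA-F (0.898), HLA-C (0.878) and BHLHE40 (0.878). PPIB had 248 ± 13.7 CPM in untreated cells, 279 ± 9.18 with BGT226 and 181 ± 5.33 with STA9090+PIK75 (SD, n = 3). For XBP1 they were TMED10 (0.817), a cargo receptor between ER and Golgi, SEC24D (0.814), a coat protein of vesicles leaving the ER, HCP5 (0.814), SND1 (0.803) and HM13 (0.801). SEC24D, picked in this way, rose with BGT226 (0.39, adjusted p = 0.00199). STA9090 on BGT226 changed it by -0.65 (adjusted p = 0.000277), where XBP1 had -0.61. For the mean of the 10 members they included HLA-B (0.905), HLA-C (0.903), HLA-F (0.896) and HCP5 (0.896). HLA-C had 35.9 ± 2.87 CPM in untreated cells and 17.0 ± 2.64 CPM with STA9090+BGT226, and STA9090 on BGT226 changed it by -1.23 (adjusted p = 2.39e-06). HLA-B, HLA-C and HLA-F are near-identical in places to related genes, so how reads were divided is uncertain.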

How the data were processed

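RNA of NCI-H295R cells was sequenced as stranded, ribosomal RNA-depleted, paired-end libraries, per the labels' protocols. Values are expected counts, deposited by the authors without normalization for 58870 genes in 18 libraries. RSEM 1.3.1, STAR 2.7.0f, cutadapt 1.18, bcl2fastq 2.20 and the build hg38 are listed in the submitters' processing notes; neither the counting strand nor the annotation release is stated. Positions are from GENCODE 29, whose versioned ID equals the table's for 3 of the 10 genes, and promoters from RefSeq.

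In R 4.3.3, expected counts were rounded, and filterByExpr (edgeR 4.0.16; minimum count 10 and minimum total 15) kept 15787 genes. After TMM scaling (factors 0.9034 to 1.132), all 18 libraries were fitted together, with 1 coefficient per group. The 13 comparisons used edgeR's quasi-likelihood F-test with Benjamini-Hochberg adjustment across the genes kept and a threshold of 0.05. An SE was obtained as log2 fold change over root F, without sign. The biological coefficient of variation was 10.58%. Log2 CPM for correlations have a prior count of 2.

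The 10 genes and the lists were chosen with earlier results of these data known. Besides the members, the text names up to 4 genes per list and comparison, those with the smallest adjusted p, and genes among the 5 most like HSPA5, XBP1 and the members' mean; some genes these rules select are not reported here. Lists are described by counts, with no test. Alternatives were RLE factors, omitting the low-count filter (genes with at least 1 count stay), a filter of 1 CPM in 3 libraries, DESeq2 1.42.0, fitting only the 2 groups compared, a replicate block, removal of the 50 most counted genes, and leaving out each library. The fit was checked on simulated data with known changes.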

Additional observations from a re-analysis of the deposited data

How the results depend on the processing

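Of 130 values (10 genes in 13 comparisons), 57 passed; 35 of these passed in every fit that left out 1 library, 34 under every alternative, and none changed sign. The largest shift of the median over all genes was 0.0279 (log2). Fits of only the 2 compared groups, which hold fewer libraries, called 0 members for STA9090 against untreated cells (in place of 3). Over all genes that fit called 4 of 14606, all lower, in place of 448. For PIK75 against untreated cells 0 members were called (2), with 928 genes higher and 1066 lower of 14682. PIK75 added to STA9090 gave 1 member (5). With no filter on low counts, which tests more genes, these PIK75 comparisons gave 0 and 3 members. The first of them had 1311 genes higher and 1691 lower of 31658. The member counts that follow are not set against all genes, whose calls also varied with the setting. For STA9090 against untreated cells, 32 genes were higher and 84 lower of 16120 without STA9090 replicate 1. Without STA9090 replicate 3, 211 were higher and 277 lower of 16202. The ranges of member counts are therefore not read as a result about the members. DESeq2 called 4 for STA9090 added to PIK75 (2). The interaction of STA9090 and BGT226 gave 1 call, XBP1, with DESeq2 and with no filter (0); the cause was not tested. Without 1 library at a time, the counts ran from 0 to 3 for STA9090, 1 to 2 for PIK75, 4 to 6 for BGT226, 4 to 6 for STA9090+PIK75 and 5 to 6 for STA9090+BGT226 against untreated cells. They ran from 2 to 3 for STA9090 added to PIK75, 2 to 4 for PIK75 added to STA9090, 7 to 7 for STA9090 added to BGT226, 3 to 6 for BGT226 added to STA9090, 6 to 9 for BGT226 against PIK75 and 6 to 7 between the combinations.

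Values near 0 that had not passed changed sign. HYOU1 with STA9090+PIK75 against untreated cells was 0.0030 with the stricter filter and 0.0035 with only the 2 compared groups, and CALR with STA9090 added to PIK75 was 0.00031 without the 50 most counted genes and 0.0042 with only the 2 compared groups. Without 1 library at a time, log2 values against untreated cells ran from -0.30 to 0.017 (HSP90B1) and -0.024 to 0.12 (DNAJC3) with STA9090, -0.024 to 0.079 (DNAJC3) with PIK75, -0.070 to 0.0091 (CALR) with BGT226, -0.054 to 0.037 (HYOU1) and -0.095 to 0.030 (XBP1) with STA9090+PIK75, and -0.17 to 0.0053 (DNAJB9) with STA9090+BGT226. They ran from -0.028 to 0.028 for CALR with STA9090 added to PIK75, -0.043 to 0.013 for PDIA6 with PIK75 added to STA9090, -0.013 to 0.11 for DNAJC3 and -0.011 to 0.13 for PDIA4 with BGT226 added to STA9090, and -0.059 to 0.013 for PDIA6 between BGT226 and PIK75. For interactions they ran from -0.016 to 0.27 (SDF2L1), -0.035 to 0.10 (PDIA4) and -0.12 to 0.024 (XBP1) with PIK75 and -0.23 to 0.072 (HSP90B1) with BGT226.

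Libraries with the same replicate number did not deviate together (mean correlation -0.0192, over 0.1 in 2 of 45 pairs; 2 of 18 libraries were closest to their own number), so the numbers were not taken to pair libraries. The replicate block lost the calls of SDF2L1 with STA9090 against untreated cells and of DNAJC3 with PIK75 added to STA9090. With 3 libraries a group, smaller changes in genes such as DNAJB9 and SDF2L1, with 91 to 484 counts in a library, may go undetected.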
